A study of Mus musculus with 6 samples.

Results

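The 7 genes described here encode the sensors of cytosolic RNA and DNA and the proteins that pass their signal on: Ddx58, Ifih1, Dhx58, Mavs, Zbp1, Tmem173 and Tbk1. They were chosen by name and matched to the table of gene values by Ensembl identifier and symbol. They are 7 of the 41388 genes in the table, and all 7 were among the 11379 genes that entered the test, for which the normalized counts of the 6 libraries had to average 10 or more. A normalized count is a gene's read number corrected by the size factor of the library.

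RNA-Seq compared WT with IRF1-deficient (Irf1-/-) Th9 cells, with 3 cultures of each genotype on the C57BL/6 background. CD4+ T cells came from spleen and lymph nodes of mice aged 8 to 12 weeks. The labels name magnetic negative selection of T cells, while the methods call the cells of this experiment naive and describe an additional flow sort for naive cells in some experiments, without saying which. The study's methods give priming by plate-bound antibodies to CD3 and CD28, with an antibody against mouse IFN-γ in the medium, for its Th9 cultures in general. Both genotypes were kept for 2 days with IL-2, IL-4 and TGF-β, and both received recombinant IFN-γ, of rat origin in those methods, at 5 ng per ml, so that all values are those of cytokine-treated cells and no culture without IFN-γ was analysed here. The Irf1-/- cells came from mice that lack the gene in every tissue, so a difference may arise before or during culture. The study calls its cultures independent biological samples, the labels do not say whether they came from separate mice, and p-values measure the spread between these cultures.

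RNA of viruses is detected in the cytosol by helicases of the RIG-I-like family, which bind duplex or triphosphate-ended RNA and engage the adaptor MAVS on mitochondria. DNA in the cytosol is detected by cGAS, whose cyclic dinucleotide product binds STING on the endoplasmic reticulum. Both routes converge on the kinase TBK1, which phosphorylates IRF3 and thereby starts the transcription of type I interferon genes, while ZBP1 binds nucleic acids of Z conformation and recruits RIPK3, a kinase of necroptotic cell death. Several of the sensors are themselves interferon-inducible, and IRF1 is a transcription factor induced by IFN-γ that binds motifs built from GAAA.

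Libraries held between 5639788 and 13348230 reads on genes, and replicate 3 of each genotype had about the depth of replicates 1 and 2 combined. Irf1 itself was measured at 2660 to 2968 normalized counts in WT and at 1476 to 1780.2 in Irf1-/- cultures, so that reads from the locus remained in the knockout at a lower level. The summed level of 6 CD4 T cell markers was 13021 to 13261 in WT and 12545 to 12982 in Irf1-/- cells, with each of the 6 detected. Single markers differed within this sum, Cd3e being lower in Irf1-/- cells (log2 fold change -0.30, limma adjusted p = 0.00535) and the other 5 not called. By contrast, CD8 T, B, dendritic and NK cell markers summed to no more than 47.4 normalized counts in any library. Replicate 3 stood apart in both genotypes. A chi-square per degree of freedom of the reads over genes, which is 1 where libraries differ by counting error alone, was 1.28 between WT and 1.79 between Irf1-/- replicates 1 and 2, and 5.96 to 7.28 between replicate 3 and either of them. The measure grows with depth, and replicate 3 was the deepest. The sum of 7 myeloid markers, each detected in at least 1 library, was 21.2, 149 and 42.4 in WT and 209, 993 and 16.0 in Irf1-/- replicates 1, 2 and 3. Y-linked transcripts summed to 2301 and 2306 normalized counts in WT replicates 1 and 2. They summed to 0 to 11.1 in WT replicate 3 and the 3 Irf1-/- libraries. Xist, the RNA of X inactivation, was at 2.50 and 6.01 in WT replicates 1 and 2 and at 16973 to 19403 in the other 4 libraries. By these transcripts WT replicates 1 and 2 read as male and the other 4 libraries as female. The labels give no sex, and the methods call the mice sex-matched. Genotype and sex thus cannot be fully told apart, and values from the 4 libraries without Y-linked transcripts are given where they change a call.

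Irf1-/- Th9 cells held less mRNA of the RNA sensor Ifih1, of Zbp1 and of Tmem173, which encodes STING. Mean levels in Irf1-/- cells were 39.0% of WT for Ifih1, 43.3% for Zbp1 and 75.8% for Tmem173. Ddx58, Dhx58, Mavs and Tbk1 did not pass the test. By limma with a Benjamini-Hochberg adjusted p below 0.05, 3 of the 7 genes were called lower and 0 higher, where 12.4% of all 11379 genes tested were called lower, 11.4% higher and 23.7% in either direction. At an unadjusted p below 0.05 the count was 4, Mavs being added with a higher value, where 36.7% of all genes tested passed that threshold. edgeR and DESeq2, run on the recovered reads, also called 0 of the 7 higher. The median log2 fold change of the 7 genes was -0.37, against -0.00 over all genes tested. The 3 WT and the 3 Irf1-/- values did not overlap for 5 of the 7 genes, 4 lower and 1 higher, where 20.9% of all genes tested had groups apart in the lower, 19.7% in the higher and 40.5% in either direction. An exact two-sided permutation test of the means gave p = 0.1 for these 5 genes, the smallest that 3 against 3 cultures allow, 0.3 for Tbk1 and 0.4 for Dhx58. In whole cultures, fewer cells expressing a gene and less RNA per cell cannot be told apart.

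**Figure D1:**
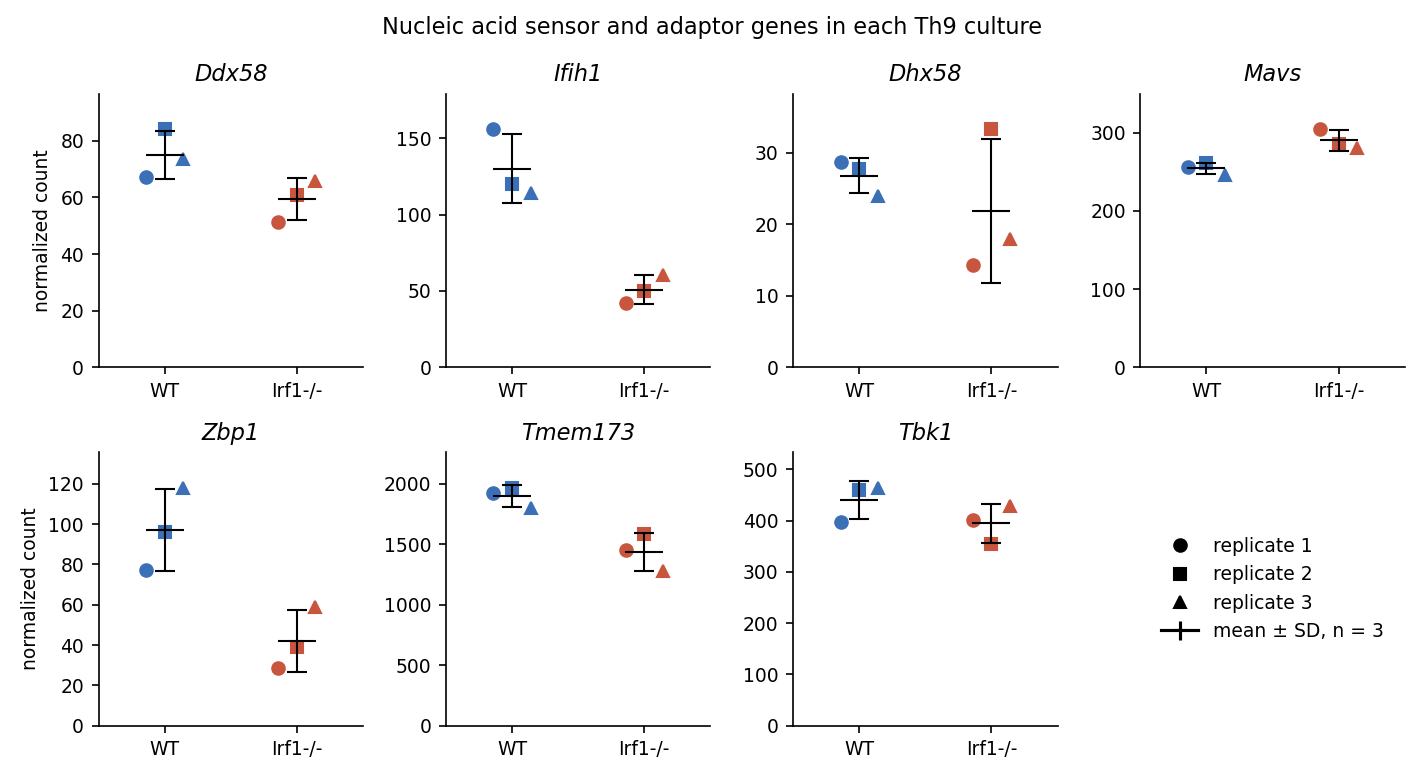
Normalized counts of the 7 genes in each library, by genotype, with the mean and SD of 3 cultures per genotype and a separate linear axis for each gene. The WT and Irf1-/- points lie apart for Ifih1, Zbp1, Tmem173, Ddx58 and Mavs, and they overlap for Dhx58 and Tbk1.

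Ifih1 (ENSMUSG00000026896, GRCm38 chr2:62595798-62646255, minus strand) encodes MDA5, the helicase that assembles along long duplex RNA. Its normalized counts were 156, 120.2 and 114 in WT and 41.8, 49.9 and 60.7 in Irf1-/- replicates 1, 2 and 3. Every Irf1-/- culture was below every WT culture, and the lowest WT value was well above the highest Irf1-/- value. The means were 130.2 ± 22.5 in WT and 50.8 ± 9.49 in Irf1-/- cells (SD, n = 3), corresponding to a log2 fold change of -1.34 (SE 0.178, adjusted p = 0.000532 by limma). Its decrease ranked 106th from the lowest of the 11379 log2 fold changes. The change was smaller in the deeper pair of libraries, at -0.90 in replicate 3 alone against -1.56 in replicates 1 and 2 alone. The 4 libraries without Y-linked transcripts gave -1.17 (limma adjusted p = 0.0277), and with the myeloid marker level as a covariate the value was -1.24.

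Ddx58 (ENSMUSG00000040296, chr4:40203773-40239828, minus strand) encodes RIG-I, the helicase that binds triphosphate-ended RNA and shares its domain layout with MDA5. WT replicates 1, 2 and 3 had 67.4, 84.2 and 73.8 normalized counts, and the Irf1-/- replicates had 51.3, 61.0 and 65.8. The ranges did not overlap, but the gap between the lowest WT and the highest Irf1-/- value was small. Mean levels were 75.1 ± 8.46 and 59.4 ± 7.38 (SD, n = 3), and the log2 fold change of -0.34 (SE 0.161) did not pass (limma adjusted p = 0.160). Its 95% interval ran from -0.69 to 0.02. Between 43 and 120 reads stood behind each value, and the log2 SD within a genotype was 0.17, about the 0.18 that read counting alone would give. In replicate 3 alone the log2 fold change was -0.16.

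Dhx58 (ENSMUSG00000017830, chr11:100694884-100704271, minus strand) encodes LGP2, the family member without the signalling domains, which modulates the other helicases. It had 28.7, 27.7 and 24.0 normalized counts in WT and 14.3, 33.3 and 17.9 in Irf1-/- replicates. A pair of Irf1-/- cultures lay below all WT cultures, and Irf1-/- replicate 2 lay above all of them. This library also had the highest myeloid marker sum. The means were 26.8 ± 2.48 and 21.8 ± 10.1 (SD, n = 3), and the log2 fold change was -0.37 (SE 0.309, 95% interval -1.05 to 0.32, limma adjusted p = 0.431). Without Irf1-/- replicate 2 it was -0.70 (limma adjusted p = 0.110), without Irf1-/- replicate 1 it was -0.12, and with the myeloid level as a covariate it was -0.52. Y-linked expression as a covariate gave -0.13, and the libraries without these transcripts gave -0.22, again with no call (limma adjusted p = 0.843 and 0.839). With 12 to 39 reads per library, Dhx58 was the most sparsely counted of the 7 genes, and 2637 bases of the locus are shared with the antisense gene Dhx58os, which averaged 2.05 normalized counts in WT and 0.611 in Irf1-/- cells.

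The balance between the sensors was compared as ratios of normalized counts within each library, for 3 pairs of helicases chosen after their values were seen. Ddx58 to Ifih1 was 0.432, 0.700 and 0.645 in WT and 1.23, 1.22 and 1.08 in Irf1-/- replicates. Reads on Ifih1 thus outnumbered those on Ddx58 in every WT culture, and the reverse held in every Irf1-/- culture. On the log2 scale the ratio was -0.79 ± 0.373 in WT and 0.23 ± 0.102 in Irf1-/- cells (SD, n = 3), a difference of 1.02 that holds the decrease of Ifih1 already given. The corresponding log2 differences were 0.97 for Dhx58 to Ifih1 and 0.05 for Ddx58 to Dhx58. Exact two-sided permutation p-values were 0.1, 0.1 and 1 for the 3 pairs, and 0.15, 0.15 and 1 after Benjamini-Hochberg adjustment, so that none passed, and they carry no weight for pairs chosen in this way.

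The start regions of Ifih1 and Ddx58 are shown because both hold matches to GAAA-based motifs, although only Ifih1 was called. RefSeq windows of 300 bases on GRCm38.p6, from 250 bases before to 50 bases after a gene's start, were searched on both strands for AANNGAAA, for a tandem motif of 2 GAAA blocks with any 2 bases between them, which always contains the first, and for the palindrome TTCNNNGAA. Among 32851 such windows, 23.9% held AANNGAAA, 3.44% the tandem motif and 8.3% TTCNNNGAA. Windows of Ifih1, Ddx58, Mavs and Tbk1 were read. Capitals mark the matched bases, and each sequence is written along the coding strand.
Ifih1, transcribed leader, chr2:62646206-62646235 (minus strand): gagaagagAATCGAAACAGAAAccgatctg
Ddx58, upstream, chr4:40239866-40239895 (minus strand): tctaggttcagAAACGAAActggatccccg
Ddx58, across the start, chr4:40239805-40239834 (minus strand): ccctgaggcagTTTCGATTTCctatggcca
In Ifih1 the overlapping matches lay in the first 50 transcribed bases, with the tandem motif starting 33 bases from the start. Ddx58 had AANNGAAA 59 bases upstream and the tandem motif, read on the other strand, from base 3 of the transcript. TTCNNNGAA was in neither window. The windows of Mavs and Tbk1 held none of the 3 motifs, and the 100 bases before each start are given for contrast.
Mavs, chr2:131233963-131234062 (plus strand): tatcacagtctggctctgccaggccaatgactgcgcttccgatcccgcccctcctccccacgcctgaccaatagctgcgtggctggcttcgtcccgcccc
Tbk1, chr10:121586795-121586894 (minus strand): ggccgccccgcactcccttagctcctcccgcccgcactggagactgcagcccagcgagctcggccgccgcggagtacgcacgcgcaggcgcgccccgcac
A match describes letters in a window, and binding of IRF1 to these windows was not analysed here. No window of Zbp1, Dhx58 or Tmem173 was read, so whether their start regions hold these motifs was not tested.

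Zbp1 (ENSMUSG00000027514, chr2:173206612-173218923, minus strand), the sensor of Z-form nucleic acids, was at 77.4, 96.2 and 118 normalized counts in WT and 28.7, 38.8 and 58.8 in Irf1-/- replicates. All Irf1-/- cultures were below all WT cultures, and replicate 3 was the highest in both genotypes. Mean levels were 97.2 ± 20.3 and 42.1 ± 15.3 (SD, n = 3), corresponding to a log2 fold change of -1.23 (SE 0.252, limma adjusted p = 0.00620), which ranked 126th from the lowest. Its log2 SD within genotypes was 0.42, where counting alone would give 0.21. The libraries without Y-linked transcripts gave -1.53 (limma adjusted p = 0.0303), and the myeloid covariate gave -1.10.

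Tmem173 (ENSMUSG00000024349, chr18:35733679-35740554, minus strand) encodes STING, the receptor of the cyclic dinucleotide made by cGAS. It had 1928, 1968 and 1798 normalized counts in WT and 1454, 1586.5 and 1276 in Irf1-/- replicates. The groups did not overlap, and replicate 3 was the lowest in both. The means of 1898 ± 88.9 and 1439 ± 156 (SD, n = 3) differed by a log2 fold change of -0.40 (SE 0.0779, limma adjusted p = 0.00452). The 95% interval of -0.58 to -0.23 lay wholly above that of Ifih1, which was -1.74 to -0.95. In the 4 libraries without Y-linked transcripts the value was -0.33 and did not pass (limma adjusted p = 0.122).

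Mavs (ENSMUSG00000037523, chr2:131234063-131248025, plus strand), the mitochondrial adaptor of both signalling helicases, was the only gene of the 7 with a higher mean in Irf1-/- cells. It had 256, 261 and 246 normalized counts in WT and 304, 286 and 279.9 in Irf1-/- replicates, so that every Irf1-/- value was above every WT value. The means were 254 ± 7.30 and 290.0 ± 12.8 (SD, n = 3), and the log2 fold change of 0.19 (SE 0.0808, 95% interval 0.01 to 0.37) did not pass after adjustment (limma adjusted p = 0.118). Tbk1 (ENSMUSG00000020115, chr10:121546455-121586787, minus strand), the kinase shared by both routes, had 397, 459 and 464 normalized counts in WT and 401, 354 and 429 in Irf1-/- replicates. These ranges overlapped, and the log2 fold change was -0.16 (SE 0.0939, 95% interval -0.37 to 0.05, limma adjusted p = 0.255). Without Irf1-/- replicate 2, the lowest culture, it was -0.08, and with Y-linked expression as a covariate it was -0.25, neither of them called (limma adjusted p = 0.611 and 0.108). The intervals of Mavs and Tbk1 both exclude a change of the size measured for Ifih1 or Zbp1.

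**Figure D2:**
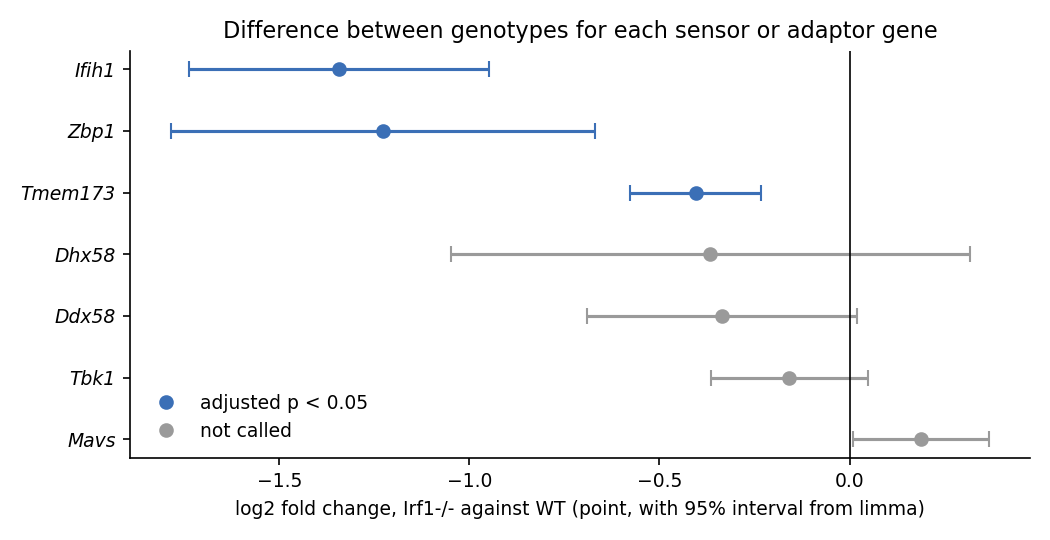
Log2 fold change of each of the 7 genes, Irf1-/- against WT, with its 95% interval from limma on 3 cultures per genotype. Ifih1 at -1.34, Zbp1 at -1.23 and Tmem173 at -0.40 lie below 0 with their whole intervals, and the intervals of Ddx58, Dhx58 and Tbk1 cross 0.

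To compare levels between genes, normalized counts were divided by the length of all annotated exons in kb. In WT cells Tmem173 was highest at 692 ± 32.4 per kb, followed by Tbk1 at 113 ± 9.59 and Mavs at 76.1 ± 2.18 (SD, n = 3). The sensors stood lower, with Zbp1 at 27.5 ± 5.76, Ifih1 at 15.9 ± 2.76, Ddx58 at 10.7 ± 1.2 and Dhx58 at 8.18 ± 0.759. Among the 7 genes, adaptors and kinase were thus more abundant per length than every sensor, and no neighbours in this order overlapped in WT. In Irf1-/- cells Tmem173 stayed highest at 525 ± 56.9, and Tbk1 at 101 ± 9.72 and Mavs at 86.7 ± 3.84 overlapped. Ifih1 had the lowest mean of the 7 genes there, at 6.22 ± 1.16 per kb. Zbp1 at 11.9 ± 4.34, Ddx58 at 8.42 ± 1.05 and Dhx58 at 6.67 ± 3.08 had overlapping ranges, and the range of Ifih1 overlapped those of Ddx58 and Dhx58.

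**Figure D3:**
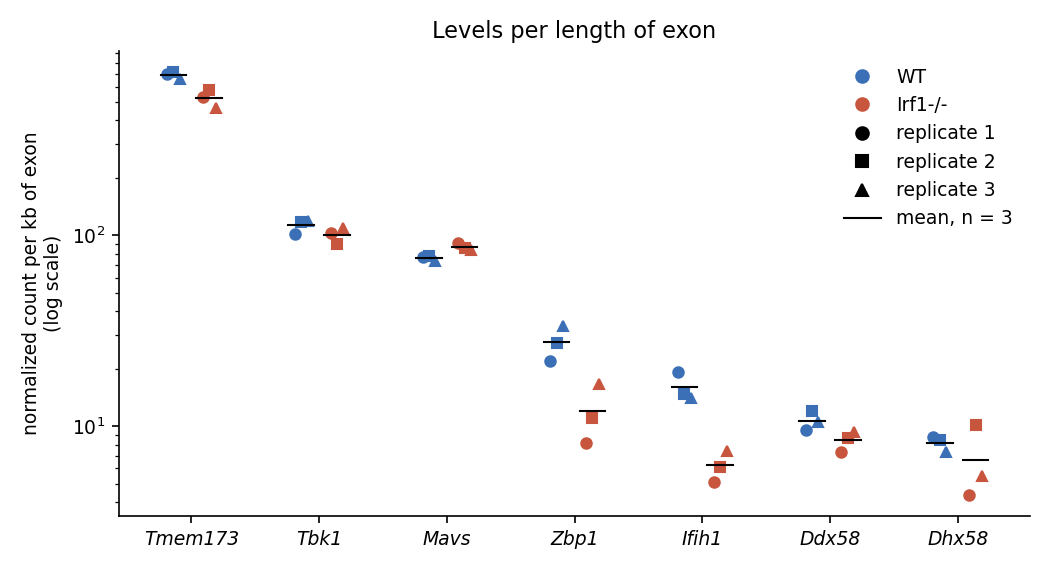
Normalized counts per kb of exon for the 7 genes in each library, on a log axis, with the mean of 3 cultures per genotype. Tmem173 is highest in both genotypes, at means of 692 in WT and 525 in Irf1-/- cells, and Ifih1 moves from above Ddx58 and Dhx58 in WT to the lowest mean in Irf1-/- cells.

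Genes with the most similar pattern were listed by Pearson's r of log2 values over the 6 libraries, among 8225 genes with a mean of at least 100. For Ifih1 they were Ddias (r = 0.998) and Zfp703 (r = 0.995), for Zbp1 Setdb2 (r = 0.991) and Nudt4 (r = 0.989), and for Tmem173 Trmt1l (r = 0.995) and Gabpb1 (r = 0.993). Ddx58 was nearest to Fam120b (r = 0.987) and Abcb8 (r = 0.984), Dhx58 to Lclat1 (r = 0.982) and Bloc1s2 (r = 0.954), Mavs to Slc9a5 (r = 0.992) and Plekha1 (r = 0.991), and Tbk1 to Sept8 (r = 0.992) and Tsn (r = 0.989). The 6 libraries fall into 2 genotype groups, and the number of genes with an r above 0.9 was 638 for Ifih1, 482 for Tmem173, 414 for Zbp1, 238 for Mavs, 118 for Tbk1, 65 for Ddx58 and 17 for Dhx58.

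The wider pathways were described through a list of 95 other genes, of which 85 were tested. In Irf1-/- cells 13 of them were called lower, which is 15.3% where 12.4% of all genes were, and 7 higher, which is 8.24% where 11.4% of all genes were. The median log2 fold change of the 85 was -0.04, against -0.00 over all genes tested. In the 4 libraries without Y-linked transcripts 7 were lower and 2 higher, where 3.54% of all genes tested in that fit were lower and 3.58% higher. The 9 genes that kept their call there were Dhx9, Dhx15, Ddx3x, Cyld, Ikbke, Mlkl, Cflar, Aim2 and Dnase2a, and the values of the other 11 are given with each gene as those without Y-linked transcripts.

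**Figure D4:**
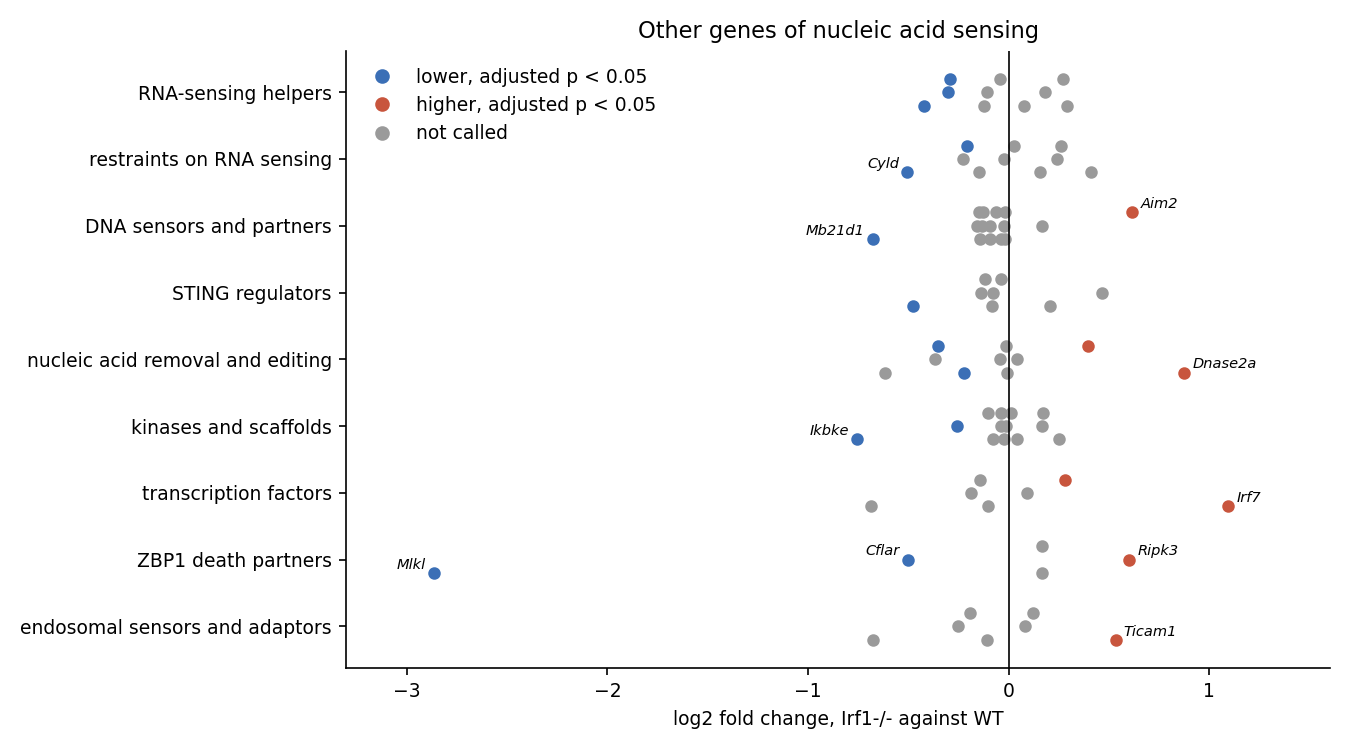
Log2 fold change, Irf1-/- against WT, of the 85 tested genes of the wider pathways by group of function, coloured by the limma call at an adjusted p below 0.05. Calls lie on both sides of 0 in several groups, and Mlkl at -2.87 lies farthest from 0.

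Among 10 tested helpers of RNA sensing, 3 were lower, where 12.4% of all genes tested were. They were the RNA helicases Dhx9, Dhx15 and Ddx3x, at log2 fold changes of -0.42, -0.29 and -0.30, while the helicase Dhx36 did not pass, at -0.12 (limma adjusted p = 0.243). Trim25, the ubiquitin ligase that acts on RIG-I, averaged 986 ± 45.9 in WT and 917 ± 92.6 in Irf1-/- cells and did not pass (SD, n = 3, limma adjusted p = 0.347). Of 10 restraints on RNA sensing, 2 were lower. They were the deubiquitinases Cyld (-0.50, limma adjusted p = 0.000433) and Usp15 (-0.21), the latter losing its call without WT replicate 1 or 3 or Irf1-/- replicate 1 or 2 (limma adjusted p from 0.0581 to 0.0992) and without Y-linked transcripts, at -0.29 (limma adjusted p = 0.0799). Usp15 was called in 12 of 20 tested alternatives. Without the mean-variance trend neither Usp15 nor Ddx3x was called (limma adjusted p = 0.0941 and 0.0508).

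Mb21d1, the gene of the DNA sensor cGAS upstream of STING, had 152, 202 and 132 normalized counts in WT and 105, 114 and 81.8 in Irf1-/- replicates. Its groups did not overlap, and it was lower by a log2 fold change of -0.68 (SE 0.175, limma adjusted p = 0.0180). The call was lost without WT replicate 2, the highest culture, at -0.51 (limma adjusted p = 0.0778), with Y-linked expression as a covariate, at -0.43 (limma adjusted p = 0.0995), without Y-linked transcripts, at -0.40 (limma adjusted p = 0.312), and without the mean-variance trend (limma adjusted p = 0.0666). Aim2, the DNA sensor that forms an inflammasome and does not signal through STING, moved the other way, from 304 ± 15.1 to 465 ± 15.2 (SD, n = 3, log2 fold change 0.62, limma adjusted p = 0.000306). The other 13 of 15 tested DNA sensors and partners were not called. In this group 6.67% were lower and 6.67% higher, where 12.4% of all genes tested were lower and 11.4% higher. Of 8 regulators of STING, the immunity-related GTPase Irgm1 was lower (-0.48), which is 12.5% where 12.4% of all genes tested were. In the libraries without Y-linked transcripts Irgm1 was at -0.46 and was not called.

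Of 10 tested enzymes that remove or edit nucleic acids, 2 were called lower, 2 higher and 6 neither, where 12.4% of all genes tested were lower and 11.4% higher. Samhd1, which depletes deoxynucleotides, and Pnpt1, a mitochondrial exoribonuclease, were lower by -0.35 and -0.22. Both calls were lost in 5 of the 6 fits that left out a library and held in the one without Irf1-/- replicate 3, and the values without Y-linked transcripts were -0.47 for Samhd1 and -0.30 for Pnpt1 (limma adjusted p = 0.0837 and 0.0966). Over the 20 tested alternatives, which also include quantile normalization, no trend and the myeloid covariate, Samhd1 was called in 11 and Pnpt1 in 10, and DESeq2 did not call Pnpt1 (adjusted p = 0.0721). Rnaseh2a, a subunit of the enzyme that cuts RNA in RNA-DNA hybrids, was higher (0.40), with 0.29 and no call without Y-linked transcripts (limma adjusted p = 0.139). Dnase2a, the lysosomal DNase, rose from 68.9 ± 13.5 to 126 ± 16.9 (SD, n = 3, log2 fold change 0.87, limma adjusted p = 0.00466). However, 11013 bases of its locus overlap Mast1 on the opposite strand, which averaged 8.17 normalized counts in WT and 16.55 in Irf1-/- cells. Whether counting used strand was not stated. Trex1, the cytosolic DNA exonuclease, was listed at 0 in all 6 libraries, and its 1802 bases lie within Atrip on the same strand.

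Ikbke encodes the kinase most closely related to TBK1 and was lower, unlike Tbk1 itself, which did not pass. It had 876, 878 and 723 normalized counts in WT and 482, 473 and 507 in Irf1-/- replicates, with the groups far apart (log2 fold change -0.75, SE 0.0833, limma adjusted p = 0.000172). The antisense genes Gm28913 and Gm28914 share 3420 and 1047 bases of its locus. Gm28913 averaged 16.3 normalized counts in WT and 6.97 in Irf1-/- cells, and Gm28914 3.26 and 1.32. Azi2, a scaffold of these kinases, was lower by -0.26, and its call was lost without WT replicate 2 or Irf1-/- replicate 2 (limma adjusted p = 0.0605 and 0.0516), and without Y-linked transcripts, at -0.24 (limma adjusted p = 0.202). The other 11 of 13 kinases and scaffolds were not called. The lower calls are 15.4% of this group, where 12.4% of all genes tested were lower and 11.4% higher. Of the transcription factors that these kinases activate, Irf3 was higher, at 577 ± 15.5 in WT and 702 ± 45.0 in Irf1-/- cells (SD, n = 3, log2 fold change 0.28, limma adjusted p = 0.0133). This call was lost without WT replicate 1 or Irf1-/- replicate 2 (limma adjusted p = 0.0609 and 0.0557), and without Y-linked transcripts, at 0.26 (limma adjusted p = 0.176), and the value was 0.19 in replicate 3 alone. Irf7 rose from 7.36 ± 0.138 to 17.0 ± 2.77 (SD, n = 3, limma adjusted p = 0.0297), but it lost its call in 5 of the 6 fits that left out a library (limma adjusted p up to 0.0953) and without Y-linked transcripts, at 1.09 (limma adjusted p = 0.193). It was called in 8 of 19 tested alternatives, and DESeq2 did not call it (adjusted p = 0.152).

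Of the 5 partners of ZBP1 in cell death, none had overlapping groups, where 40.5% of all genes tested had groups apart, and 2 were called lower and 1 higher, where 12.4% and 11.4% of all genes tested were. Mlkl, the pore-forming effector of necroptosis, had 82.4, 79.3 and 110.0 normalized counts in WT and 14.3, 12.5 and 8.31 in Irf1-/- replicates. Every WT culture held several times the level of every Irf1-/- culture, and the log2 fold change was -2.87 (SE 0.247, limma adjusted p = 3.5e-05). Ripk3, the kinase that ZBP1 recruits and that activates MLKL, rose from 411 ± 59.7 to 621 ± 42.6 (SD, n = 3, log2 fold change 0.60, limma adjusted p = 0.00226). Its difference was smaller in replicate 3 alone, at 0.29, and its call was lost without Y-linked transcripts, at 0.38 (limma adjusted p = 0.0717). Cflar, which restrains caspase-8, was lower, at 1200.2 ± 17.5 in WT and 851 ± 92.0 in Irf1-/- cells (SD, n = 3, log2 fold change -0.50, limma adjusted p = 0.00118). Zbp1 and Mlkl were called lower under all 20 tested alternatives, and Ripk3 was called higher under 19 of them.

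Of the 7 tested endosomal sensors and adaptors, 1 was called higher, which is 14.3% where 11.4% of all genes tested were. This was Ticam1, the adaptor TRIF of endosomal RNA sensing, at 113 ± 17.4 in WT and 163 ± 17.7 in Irf1-/- cells (SD, n = 3, log2 fold change 0.53, limma adjusted p = 0.0192). It lost its call without WT replicate 1 or 2 or Irf1-/- replicate 2 or 3 (limma adjusted p from 0.0520 to 0.0764), and its values were 0.36 with Y-linked expression as a covariate and 0.33 without Y-linked transcripts (limma adjusted p = 0.111 and 0.304). Without the mean-variance trend it was not called either (limma adjusted p = 0.0522). Tlr3 and Tlr8 were listed at 0 in all libraries. The output genes of the pathway were almost undetected in both genotypes. Ifnb1, which encodes interferon-β, had 1 read in WT replicate 2 and none in the other 5 libraries, and Ifna2, Ifna4, Ifnl2 and Ifnl3 had none in any library. A count of 0 allows up to 3 reads, which is 1.84 to 4.16 normalized counts depending on the library, so a difference in interferon transcripts was not detectable at this depth.

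In the promoter windows of the wider list, AANNGAAA was held by 5 of the 13 genes called lower, namely Cyld, Irgm1, Pnpt1, Ikbke and Cflar, and by 14 of 50 genes not called, a gene with several windows counting once if any of them held the motif. None of the 7 genes called higher held it. Irgm1 and Cflar also held the tandem motif, as did Myd88 and Ripk1 among genes not called. Counted in the same way over all 27025 genes with a window, 26.7% held AANNGAAA and 3.99% the tandem motif, and the counts are descriptions beside these shares.

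The calls for the 7 genes were recomputed under 21 other settings, of which 20 gave a test. Ifih1 was lower in all 20, with log2 fold changes from -1.56 to -0.90 over the 21 values, and so was Zbp1, from -1.53 to -0.99. Tmem173 was lower in 19 of the 20. Ddx58, Mavs and Tbk1 were called in none of the 20, and Dhx58 in none of the 19 that kept it.

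**Figure D5:**
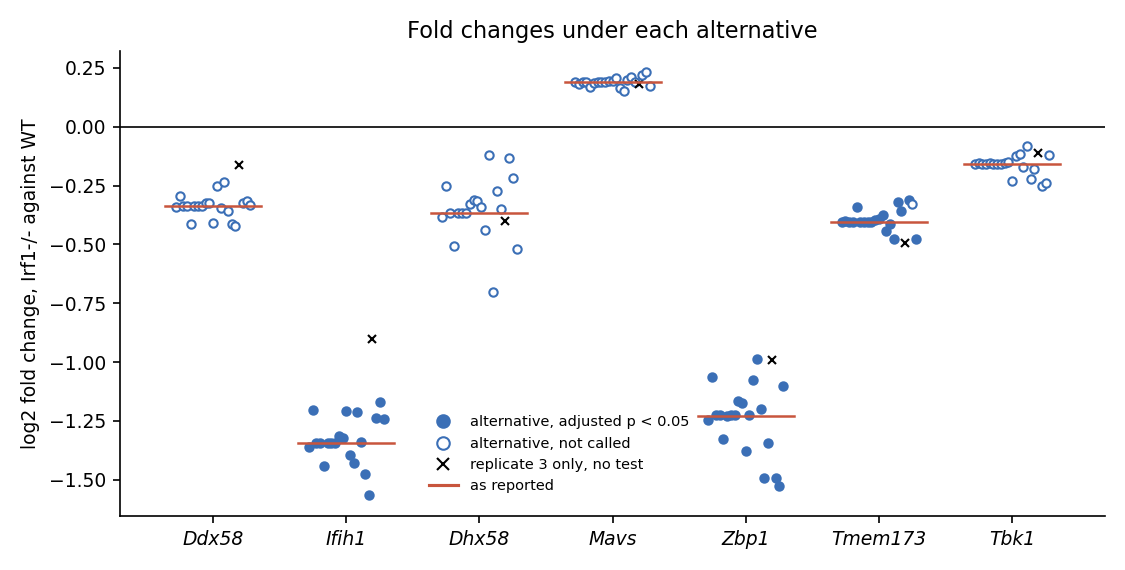
Log2 fold change of each of the 7 genes under every alternative setting, with filled points for values called at an adjusted p below 0.05, open points for values not called, crosses for replicate 3 alone, which has no test, and a line at the reported value. All 7 genes keep the sign of their change, with Ifih1 between -1.56 and -0.90, Zbp1 between -1.53 and -0.99, and Mavs the only gene above 0.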

How the data were processed

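Poly(A) RNA of 3 WT and 3 Irf1-/- cultures was sequenced by the authors, who aligned reads to GRCm38 with STAR 2.4.0b, counted them on genes of Ensembl release 76 with featureCounts and normalized them with DESeq2 1.12.3. The deposited signal is a table of counts divided by a size factor for each library, and all values were whole multiples of 1 read (tolerance 0.001), which gave back the reads. Strand and multimapping settings are not given in the sources used here. Of 41388 genes, 19805 were 0 in all libraries, and 40254 identifiers matched a symbol. Coordinates and exon lengths came from GENCODE M21 and promoter windows from RefSeq.

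In R 4.3.3, limma 3.58.1 (eBayes with a mean-variance trend) was fitted to log2(normalized count + 1) of the 11379 genes that averaged 10 or more, and p-values were adjusted over all of them by Benjamini-Hochberg. Fold changes on this scale understate the change of low genes. edgeR 4.0.16 and DESeq2 1.42.0 were alternatives, run on the recovered reads, and called 1417 genes lower and 1261 higher, and 1060 lower and 942 higher. The fits were tested on simulated data. Intervals and floors cover counting error only where they come from reads. Members and lists were chosen with earlier results of these data known. All 7 members are named, and of the wider list those with adjusted p below 0.05, an absolute log2 fold change of at least 0.5 and 50 or more normalized counts on average in the higher genotype, plus Mb21d1, Ikbke, Irf3, Irf7, Trim25, Ifnb1, Aim2, Ripk3 and Mlkl. Other listed genes were named after their values were seen. Alternatives changed the pseudocount, filter, normalization, trend, tool or libraries. The myeloid covariate was added after seeing the data.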

Additional observations from a re-analysis of the deposited data

How the results depend on the processing

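Of the 7 genes, the calls of Ifih1 and Zbp1 held under every tested alternative, and 3 genes were lower whichever library was left out. In replicate 3 only, with no test, Ifih1 was -0.90 and Ddx58 -0.16. In the libraries without Y-linked transcripts, where WT is 1 library assumed to vary like the others, Tmem173 was -0.33 (limma adjusted p = 0.122). There 7 genes of the wider list were lower and 2 higher, against 13 and 7 in the reported fit. The higher count was 11 with quantile normalization and 12 in replicates 1 and 2 only, where 11% and 15.9% of all genes tested were higher. Leaving out 1 library gave 9 to 16 lower and 5 to 9 higher genes of the wider list. In those fits 7.23% to 12.9% of all genes tested were lower and 7.07% to 12.1% higher. Over all genes, counts fell from 1406 lower and 1293 higher to 807 and 928 with no trend, 824 and 814 without WT replicate 1, 824 and 805 without WT replicate 2, 895 and 810 without Irf1-/- replicate 2, and 403 and 407 without Y-linked libraries. The cause was not tested. The edgeR and DESeq2 fits kept the calls of the 7 genes. Depth limits what can be said of Dhx58, Irf7 and the interferon genes.

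Replicate numbers share no stated mouse or day. Deviations of same-numbered cultures correlated at 0.0922, 0.269 and 0.321, and every culture correlated best with its own number, a hint from the data rather than the design. With a replicate block, Ifih1 stayed at -1.34 (limma adjusted p = 2.9e-06), the 7 genes kept 3 lower calls, 19 genes of the wider list were lower and 14 higher, and 2116 of all genes were lower and 1893 higher.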
